A study of Mus musculus with 8 samples.

Results

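The 10 genes described here encode the secreted ligands, receptors, latency proteins and principal feedback inhibitor of transforming growth factor beta (TGF-beta) signalling, and they were measured in B16F10 cells, a mouse melanoma line. They were found in the deposited expression table by their gene symbols alone, *Tgfb1*, *Tgfb2*, *Tgfb3*, *Inhba*, *Tgfbr1*, *Tgfbr2*, *Tgfbr3*, *Ltbp1*, *Ltbp3* and *Smad7*, which are 10 of its 55414 genes. The table holds total RNA sequencing of 8 cultured-cell libraries, 2 in each of 4 groups, all collected after 24 h. WT cells and CypD KO cells were kept at 21% O2. The KO cells had *Ppif*, the gene of the mitochondrial matrix isomerase cyclophilin D (CypD), targeted with CRISPR/Cas9 and were selected with puromycin. Cells stably carrying an empty pcDNA vector (Control) and cells stably carrying a *PPIF* expression vector (CypD OE) were selected with G418 and kept at 1% O2. The study asked how the loss of CypD, or more of it under low oxygen, changes the transcriptome of melanoma cells. The sources used here do not state how many clones stand behind each line, nor whether the 2 libraries of a group came from separate cultures, so p-values measure only the spread between libraries, which may be technical.

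TGF-beta ligands are secreted as latent complexes, in which the mature dimer stays bound to its own propeptide, and latent TGF-beta binding proteins (LTBPs) tether that complex to the extracellular matrix. Integrins, thrombospondin and proteases release the ligand, which brings together a type II and a type I receptor kinase, and the type I receptor then phosphorylates SMAD2 and SMAD3. In melanoma the pathway is known both for slowing the growth of melanocytic cells and for invasion, matrix production and immune evasion.

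Levels are given as TPM, the share of a library's transcripts on a fixed total, corrected for transcript length, and differences as log2 fold changes on the log2(TPM + 1) scale, here called log2 differences, which understates the change of genes of low level. A gene was said to rise or fall where the limma adjusted p, over all 13526 genes tested, was under 0.05. *Ppif* itself was at 50.68 and 49.99 TPM in WT against 10.44 and 12.11 TPM in CypD KO, a fall of 2.07 on the log2 scale (limma adjusted p = 3.81e-06). In the libraries labelled CypD OE it was at 50.29 and 49.28 TPM against 44.59 and 42.25 TPM in Control. That difference of 0.19 did not pass the threshold (limma adjusted p = 0.0794), so every direction given for the libraries labelled CypD OE rests on the label and not on a measured rise of *Ppif*. The study checked its CypD clones by western blot. The labels write the gene of the vector as *PPIF* and the methods as *Ppif*, and whether the table counts transcripts of the vector was not tested. All 8 melanocytic markers examined, from *Mitf* to *Pmel*, were present in every library, and their summed level ran from 12789 and 12958 TPM in the CypD KO libraries, over 13775 and 13953 TPM in those labelled CypD OE and 15935 and 16040 TPM in WT, to 20827 and 21385 TPM in Control. *Tyrp1*, *Dct*, *Pmel* and *Mlana* dominate that sum, and single markers went other ways. *Tyr* was at 37.44 and 41.25 TPM in WT against 167.01 and 147.10 TPM in CypD KO, and *Slc45a2* was higher in CypD KO too, whereas *Mitf* overlapped between the groups. All 5 epithelial markers were at 0. From the size of the steps between low values, 1 sequenced fragment was worth 0.082 to 0.0975 TPM at an effective length of 1000 bases, so the libraries were of like depth.

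In WT cells the members spanned a wide range of levels. *Tgfbr1*, the type I receptor kinase, was at 27.14 and 30.43 TPM and *Ltbp3*, a latency protein, at 21.06 and 23.20 TPM. *Tgfb3*, *Tgfbr2*, *Smad7* and *Tgfb2* followed, in that order of mean, between 5.53 and 9.18 TPM. *Tgfb1* was at 2.42 and 2.74 TPM and the co-receptor gene *Tgfbr3* at 1.48 and 1.89 TPM. *Ltbp1* was below 0.5 TPM and *Inhba* at 0 and 0.02 TPM. No 2 neighbours in this order overlapped in their library values, although with 2 libraries each the order of *Tgfb3*, *Tgfbr2* and *Smad7*, whose values lie between 7.53 and 9.18 TPM, is a description.

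**Figure D1:**
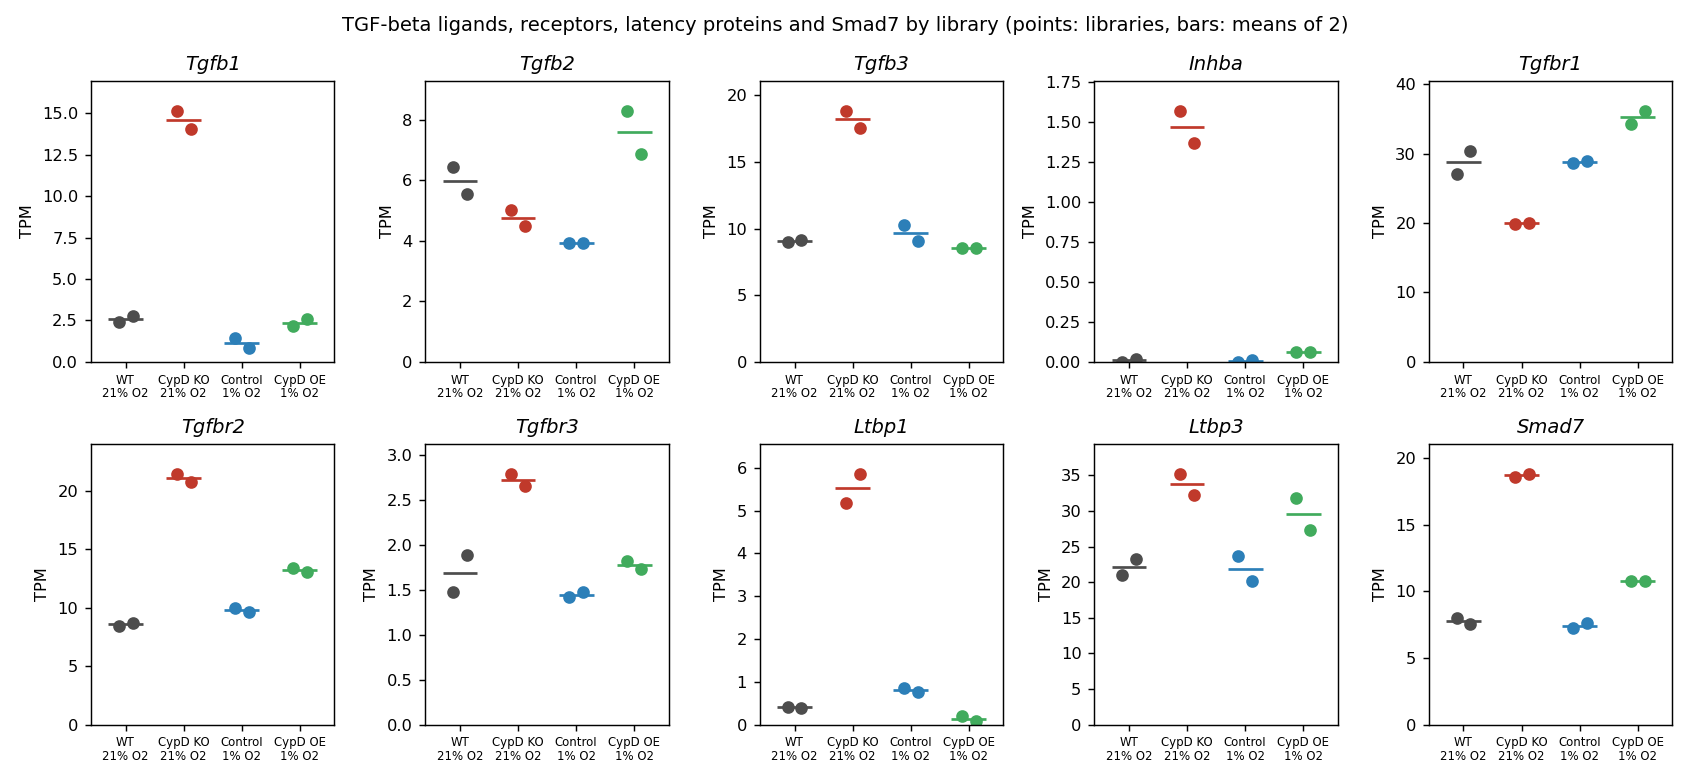
Level (TPM, linear axis from 0, a different range in each panel) of the 10 member genes in each of the 8 libraries; each point is 1 library, grouped as WT, CypD KO, Control and CypD OE. The CypD KO libraries stand above all others for *Tgfb1*, at 14.06 to 15.13 TPM, *Tgfb3*, *Inhba*, *Tgfbr2*, *Tgfbr3*, *Ltbp1*, *Ltbp3* and *Smad7*, and below all others for *Tgfbr1*, at 19.82 to 20.06 TPM.

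In CypD KO cells the system moved at nearly every level, from ligands to latency proteins, receptors and the inhibitor. Of the 10 members 8 rose and 1, *Tgfbr1*, fell, while *Tgfb2* did not pass the threshold. Over all genes tested 30.1% rose and 18.4% fell in this comparison. *Inhba* and *Ltbp1* reached 1 TPM in the CypD KO libraries only, and so entered the test through the group where they were high. Of the other 8 members, which reached 1 TPM in every group, 6 rose and 1 fell, and their median log2 difference was 0.76, against 0.09 over all genes tested. The all-gene split depends on scaling. After the libraries were rescaled by median-of-ratios size factors, 3290 genes rose and 3364 fell, against 4066 and 2486 before, and the median of all genes moved to 0.00319, while the 9 member calls kept their direction and *Tgfb2* also passed as lower.

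*Tgfb1* (ENSMUSG00000002603; GRCm39 chromosome 7, 25386390 to 25404506, plus strand) encodes the founding ligand of the family. It was at 2.42 and 2.74 TPM in WT against 15.13 and 14.06 TPM in CypD KO, with no overlap between the groups. The ratio of the means was 5.66, and the log2 difference was 2.12 (standard error, SE, 0.17; limma adjusted p = 9.92e-05). About 64 to 67 fragments stood behind each WT value and 365 to 418 behind each CypD KO value.

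*Tgfb3* (ENSMUSG00000021253; chromosome 12, 86102756 to 86126301, minus strand), the ligand best known from palate and wound biology, also rose. It was at 9.02 and 9.18 TPM in WT against 18.81 and 17.57 TPM in CypD KO, a ratio of 2.0 and a log2 difference of 0.93 (SE 0.087, limma adjusted p = 2.04e-04).

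*Tgfb2* (ENSMUSG00000039239; chromosome 1, 186354985 to 186438294, minus strand) was the ligand that did not pass. It was at 6.42 and 5.53 TPM in WT and 5.01 and 4.50 TPM in CypD KO. The CypD KO values lay below the WT values, with a difference of -0.28 on the log2 scale and a 95% confidence interval of -0.58 to 0.03 (limma adjusted p = 0.117). It passed only after the rescaling named above (limma adjusted p = 0.0481).

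*Inhba* (ENSMUSG00000041324; chromosome 13, 16186373 to 16206206, plus strand) encodes the subunit of activin A, a related ligand that signals through the same SMAD2 and SMAD3 branch. It was at 0 and 0.02 TPM in WT, which is at most about 1 fragment, and at 1.57 and 1.37 TPM in CypD KO, about 94 to 115 fragments. The gene was thus close to unmeasured outside the KO. Its fitted difference was 1.29 (SE 0.18) but depends on the pseudocount, reaching 3.84 with a pseudocount of 0.1. No ratio of means and no p is given, since *Inhba* entered the test through the CypD KO libraries only.

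Because the 3 TGF-beta genes moved unequally, their proportions within a library changed, a summary chosen after the values were seen. Their summed level was 17.86 and 17.45 TPM in WT and 38.95 and 36.13 TPM in CypD KO. *Tgfb1* made up 13.5% and 15.7% of that sum in WT and 38.8% and 38.9% in CypD KO. *Tgfb2* made up 35.9% and 31.7% in WT and 12.9% and 12.5% in CypD KO, whereas *Tgfb3* held 50.5% and 52.6% in WT and 48.3% and 48.6% in CypD KO. Thus the shares of *Tgfb1* and *Tgfb2* in the 2 groups lay far apart, and those of *Tgfb3* lay close together. The differences in share were not tested.

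The receptors moved in opposite directions. *Tgfbr2* (ENSMUSG00000032440; chromosome 9, 115913361 to 116004800, minus strand), the type II kinase that binds the ligand first, was at 8.47 and 8.70 TPM in WT and 21.45 and 20.74 TPM in CypD KO. This was a ratio of 2.46 and a log2 difference of 1.21 (SE 0.070, limma adjusted p = 2.59e-05).

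*Tgfbr1* (ENSMUSG00000007613; chromosome 4, 47353134 to 47414931, plus strand), the type I kinase that phosphorylates the SMADs, fell from 27.14 and 30.43 TPM to 19.82 and 20.06 TPM, a log2 difference of -0.51 (SE 0.068, limma adjusted p = 9.81e-04). *Tgfbr1* was 3.2 and 3.5 times the level of *Tgfbr2* in the WT libraries, and 0.92 and 0.97 times its level in the CypD KO libraries. The order of the kinase genes by level was therefore turned in CypD KO, by a small margin.

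*Tgfbr3* (ENSMUSG00000029287; chromosome 5, 107249402 to 107437623, minus strand) encodes betaglycan, the co-receptor that presents ligand, TGF-beta 2 above all, to the kinases. It was at 1.48 and 1.89 TPM in WT and 2.79 and 2.65 TPM in CypD KO, a log2 difference of 0.47 (SE 0.14, limma adjusted p = 0.0301). The groups did not overlap, yet the call was lost without WT replicate 1 (0.36, limma adjusted p = 0.132), without CypD KO replicate 1 (0.45, limma adjusted p = 0.106) and without CypD KO replicate 2 (0.50, limma adjusted p = 0.0781).

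Both latency protein genes were higher in CypD KO. *Ltbp1* (ENSMUSG00000001870; chromosome 17, 75312519 to 75699507, plus strand), which anchors latent TGF-beta 1 in the matrix, was at 0.42 and 0.39 TPM in WT and 5.18 and 5.86 TPM in CypD KO, a ratio of 13.6. Its log2 difference of 2.21 (SE 0.16) was 3.47 with a pseudocount of 0.1. No p is given, since *Ltbp1* entered the test through the CypD KO libraries only. *Ltbp3* (ENSMUSG00000024940; chromosome 19, 5790932 to 5808669, plus strand) was at 21.06 and 23.20 TPM in WT and 35.22 and 32.23 TPM in CypD KO, a log2 difference of 0.59 (SE 0.11, limma adjusted p = 0.00427). The 2 LTBP genes thus differed widely in level. In WT *Ltbp3* was the far more abundant transcript, and in CypD KO it still was.

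*Smad7* (ENSMUSG00000025880) encodes the inhibitory SMAD that TGF-beta induces and that directs the type I receptor to degradation. It rose from 8.03 and 7.53 TPM to 18.60 and 18.83 TPM, a ratio of 2.41 and a log2 difference of 1.17 (SE 0.077, limma adjusted p = 4.31e-05). The CypD KO libraries held more than any other library of the series.

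Markers of other cell types were examined beside this comparison, since in bulk samples a change in the make-up of a culture and a change of RNA per cell cannot be told apart. The summed level of 8 fibroblast markers was 17.92 to 20.29 TPM in WT and 35.25 to 38.03 TPM in CypD KO, carried by *Postn*, at 31.22 to 34.77 TPM in CypD KO. *Col1a2*, another of these markers, went the other way, at 6.87 to 9.03 TPM in WT and 1.09 to 2.17 TPM in CypD KO, and *Dcn* and *Thy1* were at 0 in every library. The summed level of 6 leukocyte markers was 3.50 to 4.20 TPM in WT and 22.55 to 23.62 TPM in CypD KO, of which *Cd68* made up 21.85 to 23.33 TPM, while *Adgre1* and *Cd3e* were at 0 and *Ptprc* was at most 0.02 TPM. The 4 endothelial markers summed to at most 1.2 TPM in any library.

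**Figure D2:**
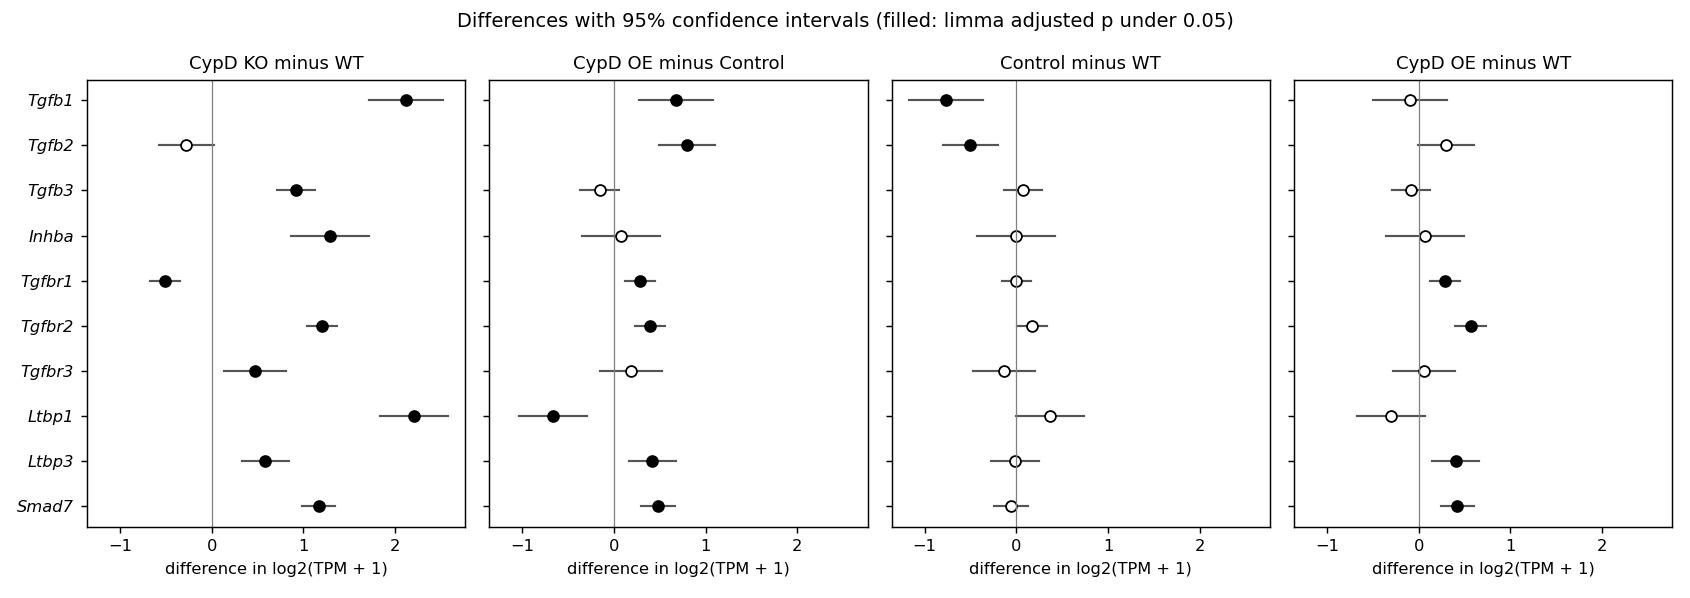
Difference in log2(TPM + 1) for each member gene in the 4 comparisons, with 95% confidence intervals from limma; filled points have an adjusted p under 0.05 and open points do not. In CypD KO minus WT the largest differences on this scale are those of *Ltbp1* (2.21) and *Tgfb1* (2.12), where *Ltbp1* and *Inhba* entered the test through the CypD KO libraries only. In CypD OE minus Control the differences lie between -0.67 (*Ltbp1*) and 0.80 (*Tgfb2*), and in Control minus WT 8 of the 10 points are open.

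Promoter sequences were read in order to see whether the letters ACGTG occur near the start sites of the members. ACGTG is a form of the hypoxia response element core, the site to which HIF1 binds. The RefSeq promoter table covers 300 bases around each start site on the GRCm38.p6 build, which is not the build of the expression table. It held 9 promoters for 7 of the 10 members. The 250 bases before the start are printed below, 5′ to 3′ on the strand of the gene, for *Tgfb1* (chr7:25686752-25687001, plus strand) and the first promoter of *Ltbp1* (chr17:75005279-75005528, plus strand), a ligand and a latency protein that rose in CypD KO, and for *Tgfb2* (chr1:186705990-186706239, minus strand), the ligand that did not pass there. Capitals mark ACGTG or its reverse complement CACGT.
Tgfb1: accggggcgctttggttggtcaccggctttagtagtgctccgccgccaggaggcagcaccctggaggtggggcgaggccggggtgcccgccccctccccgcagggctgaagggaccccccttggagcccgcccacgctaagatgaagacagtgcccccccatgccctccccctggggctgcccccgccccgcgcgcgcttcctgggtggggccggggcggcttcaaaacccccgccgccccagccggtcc
Ltbp1: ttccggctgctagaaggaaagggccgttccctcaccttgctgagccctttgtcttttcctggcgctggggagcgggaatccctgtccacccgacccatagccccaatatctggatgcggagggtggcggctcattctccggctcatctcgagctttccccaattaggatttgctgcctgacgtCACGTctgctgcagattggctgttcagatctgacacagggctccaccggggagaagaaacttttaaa
Tgfb2: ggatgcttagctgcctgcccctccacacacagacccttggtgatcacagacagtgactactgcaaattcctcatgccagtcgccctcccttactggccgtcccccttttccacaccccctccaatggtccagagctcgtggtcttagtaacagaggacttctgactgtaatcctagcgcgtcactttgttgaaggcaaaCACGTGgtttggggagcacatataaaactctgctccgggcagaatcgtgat
ACGTG, searched on both strands, was found in 3 of these 9 promoters and in 19.6% of all 32851 promoters of the table. In *Tgfb2* the match is the palindrome CACGTG, 51 bases before the start, which reads as ACGTG on both strands. In *Ltbp1* it lies 67 bases before the start on the minus strand, and in *Ltbp3* at base 27 after the start. The windows of *Tgfb1*, *Inhba*, *Tgfbr1* and *Tgfbr2* and the second window of *Ltbp1* do not hold these letters. GCGTG, another form of the core, was not part of the search. It does stand, on either strand, in the windows of *Tgfb1*, *Inhba* and *Tgfbr2* and the first of *Tgfbr1*. A window without ACGTG is therefore not a window without the core. Whether HIF1 or another factor binds any match, the palindrome of *Tgfb2* included, was not tested.

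CAGAC, the letters of a SMAD-binding box, was found on either strand in 6 of the 9 windows, those of *Tgfb2*, *Tgfbr2* and *Ltbp3*, both of *Ltbp1* and the second of *Tgfbr1*, against 49.6% of all promoters. TGACTCA, an AP-1 site, was found in that of *Ltbp3* alone, 6 bases before the start, against 5.2% of all promoters. These matches are a description of letters in short windows. The members that rose in CypD KO include promoters with and without each searched sequence. Gene-level values do not tell which start site was used.

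At 1% O2, in the libraries labelled CypD OE against Control, 6 of the 10 members rose and 1, *Ltbp1*, fell, where 19.0% of all genes tested rose and 18.3% fell. Over the 8 members that reached 1 TPM in every group the median was 0.41, against 0.00 over all genes tested. *Tgfb2*, *Tgfbr2* and *Smad7* passed in the fit as reported and in every alternative run. *Tgfb1*, *Tgfbr1*, *Ltbp1* and *Ltbp3* lost their calls when single libraries were left out.

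Of the ligands *Tgfb1* and *Tgfb2* rose. *Tgfb2* was at 3.92 and 3.92 TPM in Control against 8.28 and 6.87 TPM in CypD OE, a ratio of 1.93 and a log2 difference of 0.80 (SE 0.13, limma adjusted p = 0.00325). *Tgfb1* was at 1.43 and 0.81 TPM in Control and 2.15 and 2.56 TPM in CypD OE, a ratio of 2.10 and a log2 difference of 0.68 (SE 0.17, limma adjusted p = 0.020). The Control libraries lay apart, with about 35 and 21 fragments behind them, and the *Tgfb1* call was lost without Control replicate 2 (0.46, limma adjusted p = 0.0805) and without CypD OE replicate 2 (0.59, limma adjusted p = 0.1).

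*Tgfb3* was at 10.29 and 9.05 TPM in Control and 8.53 and 8.56 TPM in CypD OE. Its difference of -0.16 did not pass, with a 95% confidence interval of -0.37 to 0.05 (limma adjusted p = 0.203). *Inhba* was at 0 and 0.01 TPM in Control and 0.06 and 0.06 TPM in CypD OE, under 5 fragments in each library, and no fold is given. The share of *Tgfb2* in the summed level of the 3 TGF-beta genes was 25.1% and 28.4% in Control and 43.7% and 38.2% in CypD OE, and that of *Tgfb3* was 65.8% and 65.7% in Control and 45.0% and 47.6% in CypD OE.

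**Figure D3:**
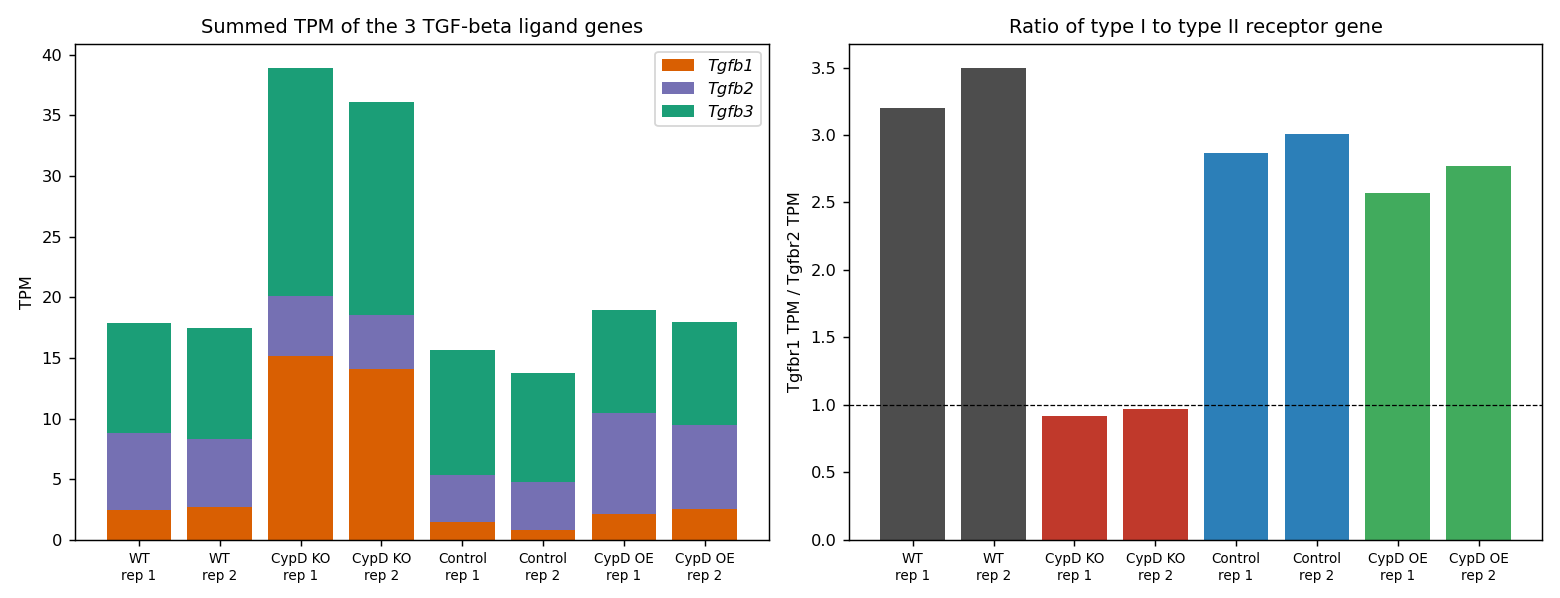
Left, summed level (TPM) of *Tgfb1*, *Tgfb2* and *Tgfb3* in each library, stacked by gene; right, ratio of the *Tgfbr1* to the *Tgfbr2* level in each library, with a dashed line at 1. The sum is 36.13 and 38.95 TPM in CypD KO against 13.78 to 18.96 TPM elsewhere, and the ratio is 0.92 and 0.97 in CypD KO against 2.57 to 3.5 elsewhere.

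Both kinase receptors were higher in CypD OE. *Tgfbr2* was at 9.96 and 9.61 TPM in Control and 13.36 and 13.02 TPM in CypD OE, a log2 difference of 0.40 (SE 0.070, limma adjusted p = 0.00484). *Tgfbr1* was at 28.63 and 28.89 TPM in Control and 34.34 and 36.13 TPM in CypD OE, a log2 difference of 0.28 (SE 0.068, limma adjusted p = 0.0164). Neither gene overlapped between the groups, and the *Tgfbr1* call was lost without Control replicate 1, Control replicate 2 or CypD OE replicate 2 (limma adjusted p = 0.0691, 0.0612 and 0.088). The ratio of *Tgfbr1* to *Tgfbr2* stayed well above 1, at 2.87 and 3.01 in Control and 2.57 and 2.77 in CypD OE. *Tgfbr3* was at 1.42 and 1.47 TPM in Control and 1.82 and 1.73 TPM in CypD OE, a difference of 0.18 that did not pass, with a 95% confidence interval of -0.16 to 0.52 (limma adjusted p = 0.36).

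The LTBP genes parted in this comparison. *Ltbp1* was at 0.85 and 0.77 TPM in Control and 0.19 and 0.09 TPM in CypD OE, about 56 to 57 fragments against 7 to 15. It fell by 0.67 on the log2 scale (SE 0.16, limma adjusted p = 0.0147), although all 4 values are below 1 TPM, and the call was lost without Control replicate 1 (limma adjusted p = 0.0652) or CypD OE replicate 2 (limma adjusted p = 0.0665). With a pseudocount of 0.1 the difference was -1.95.

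*Ltbp3* was at 23.67 and 20.12 TPM in Control and 31.82 and 27.36 TPM in CypD OE, a log2 difference of 0.42 (SE 0.11, limma adjusted p = 0.0226), and was lost without Control replicate 2 (0.31, limma adjusted p = 0.113) and without CypD OE replicate 1 (0.31, limma adjusted p = 0.119). *Smad7* rose from 7.22 and 7.62 TPM to 10.76 and 10.75 TPM, a ratio of 1.45 and a log2 difference of 0.48 (SE 0.077, limma adjusted p = 0.0032).

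Control and WT cells differ in oxygen and in carrying the vector, which cannot be told apart. Here no member rose and 2 fell, *Tgfb1* and *Tgfb2*, where 12.1% of all genes tested rose and 12.1% fell. At an unadjusted p under 0.05 limma called 1 member higher, *Tgfbr2*. The difference of *Tgfb1* was -0.77 (SE 0.17, limma adjusted p = 0.019) and that of *Tgfb2* was -0.50 (SE 0.13, limma adjusted p = 0.0312), with the library values given above not overlapping for either gene. Neither call was firm. That of *Tgfb1* was lost without WT replicate 1, WT replicate 2 or Control replicate 2 (limma adjusted p = 0.0566, 0.0888 and 0.0704), and that of *Tgfb2* without any one of the 4 libraries (limma adjusted p = 0.0559 to 0.137). The 95% confidence interval of *Tgfbr1* was -0.16 to 0.16 around a difference of 0.00, and that of *Tgfbr2* was 0.004 to 0.34 around 0.17.

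The libraries labelled CypD OE were also set against WT, a contrast in which oxygen, vector and overexpression label cannot be told apart. Of the members 4 rose and none fell by limma, with none lower at an unadjusted p under 0.05, where 14.0% of all genes tested rose and 13.7% fell. *Tgfbr2* had a difference of 0.57 (SE 0.070, limma adjusted p = 0.00174) and *Smad7* of 0.42 (SE 0.077, limma adjusted p = 0.00805), and both passed in every alternative run. *Tgfbr1* rose by 0.29 (limma adjusted p = 0.0218) and was lost without WT replicate 1, CypD OE replicate 1 or CypD OE replicate 2 (limma adjusted p = 0.0938, 0.0581 and 0.110). *Ltbp3* rose by 0.40 (limma adjusted p = 0.0346) and was lost without WT replicate 1, WT replicate 2 or CypD OE replicate 1 (limma adjusted p = 0.151, 0.0673 and 0.164). *Tgfb1*, at 2.15 and 2.56 TPM in CypD OE and 2.42 and 2.74 TPM in WT, overlapped between these groups, with a difference of -0.10 and a 95% confidence interval of -0.50 to 0.31. This contrast shares its libraries with those before it, and the WT libraries also serve the KO comparison.

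The genes around the members were described by lists of pathway components. The latency and activation list holds 19 other genes that store or release the ligand, of which 12 were tested, and in CypD KO 11 rose and none fell. *Tgm2* was tested only through the CypD KO libraries. Of the other 11, which reached 1 TPM in more than 1 group, 10 rose, with a median of 1.49, beside the 30.1% and 18.4% of all genes tested that rose and fell. None of the 12 was lower at an unadjusted p under 0.05. *Thbs1*, thrombospondin 1, which activates latent TGF-beta, was at 8.62 and 8.59 TPM in WT and 91.14 and 91.06 TPM in CypD KO (log2 difference 3.26, limma adjusted p = 6.54e-07). The latency protein gene *Ltbp4* was at 2.38 and 2.45 TPM against 18.90 and 15.42 TPM (2.40, limma adjusted p = 3.23e-05). *Tgm2*, the transglutaminase that crosslinks LTBPs to matrix, was at 0.74 and 0.51 TPM against 4.49 and 4.73 TPM, and is given as levels because of how it entered the test. *Nrros*, which displays latent TGF-beta on myeloid cells, was the gene of the list that did not pass.

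In CypD OE against Control 2 of the 11 genes of this list that reached 1 TPM in more than 1 group rose and 2 fell, with a median of 0.34, shares near the 19.0% and 18.3% of all genes tested. *Tgm2* was lower as well, at 0.60 and 0.72 TPM in Control and 0.10 and 0.08 TPM in CypD OE. All of these values are below 1 TPM, and *Tgm2* was tested only through the CypD KO libraries. *Itgb5* rose from 8.72 and 9.11 TPM to 21.76 and 23.33 TPM (1.25, limma adjusted p = 1.24e-04) and *Thbs1* from 5.80 and 5.83 TPM to 13.70 and 13.44 TPM (1.10, limma adjusted p = 3.40e-05). *Itgav*, the alpha chain that pairs with the beta 5 chain in a TGF-beta activating integrin, fell from 64.15 and 65.91 TPM to 38.82 and 35.41 TPM (-0.79, limma adjusted p = 9.94e-05). The partners of this integrin therefore moved in opposite directions in CypD OE, whereas in CypD KO both were higher. Of the other beta chain genes of the list, *Itgb3* fell in CypD OE beside *Itgav* (-0.72). *Itgb1* (0.05) and *Itgb8* (0.50) did not pass, and *Itgb6* was at 0 in every library.

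The SMAD list, the other 7 SMAD genes, had 2 genes higher and 2 lower in CypD KO, with a median of -0.11. These are 28.6% each, beside 30.1% and 18.4% of all genes tested. *Smad3*, a receptor-activated SMAD of the TGF-beta branch, rose from 16.06 and 13.55 TPM to 27.53 and 25.24 TPM (0.80, limma adjusted p = 0.00137), and *Smad1*, of the BMP branch, from 9.16 and 10.26 TPM to 12.24 and 12.91 TPM (0.34, limma adjusted p = 0.0209). *Smad9*, also of the BMP branch, fell from 14.02 and 13.04 TPM to 7.33 and 7.21 TPM (-0.81, limma adjusted p = 3.07e-04), as did *Smad5*, of the same branch, by a smaller amount (-0.38, limma adjusted p = 0.0102). *Smad2*, of the TGF-beta branch, had a difference of -0.23 that did not pass. In CypD OE against Control 3 rose and 1 fell, 42.9% and 14.3% beside 19.0% and 18.3% of all genes tested, with a median of 0.21. *Smad3* was the one that fell (-0.49, limma adjusted p = 0.0147), and *Smad1* (0.68, limma adjusted p = 0.00166), *Smad6* (0.50, limma adjusted p = 0.00973) and *Smad5* (0.34, limma adjusted p = 0.020) rose.

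Feedback regulators and modulators of the pathway were tested for 14 of 16 genes, of which 10 rose and 2 fell in CypD KO, 71.4% and 14.3% beside 30.1% and 18.4% of all genes tested, with a median of 0.49. The transcriptional co-repressor gene *Tgif1* rose from 12.17 and 9.98 TPM to 34.97 and 30.41 TPM (1.48, limma adjusted p = 9.02e-05). *Skil*, which encodes the SMAD co-repressor SnoN, rose from 16.42 and 17.03 TPM to 46.95 and 42.87 TPM (1.37, limma adjusted p = 1.46e-05), and *Pmepa1*, whose product sequesters SMADs, from 15.24 and 16.11 TPM to 30.95 and 34.93 TPM (1.02, limma adjusted p = 2.27e-04). In CypD OE against Control 6 rose and 1 fell, 42.9% and 7.1% beside 19.0% and 18.3% of all genes tested, with a median of 0.20. *Skil* (0.80, limma adjusted p = 2.49e-04) and *Pmepa1* (0.43, limma adjusted p = 0.0147) were among those that rose, and *Nedd4l*, a ubiquitin ligase of SMAD2 and SMAD3, was the one that fell (-0.69, limma adjusted p = 3.11e-05).

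Known TGF-beta target genes were the list with the largest median in CypD KO. Of 19 genes 13 were tested and all 13 rose, where 30.1% of all genes tested did, and none was lower at an unadjusted p under 0.05. The genes of the list that were not tested were *Tgfbi*, *Cdkn2b*, *Lmcd1*, *Snai1*, *Itgb6* and *Ltbp2*. They were at most 0.34 TPM in any library. *Acta2* was tested only through the CypD KO libraries, and the other 12 reached 1 TPM in more than 1 group, with a median of 1.88. *Timp1*, an inhibitor of matrix metalloproteinases, was at 4.03 and 2.91 TPM against 59.21 and 65.34 TPM (3.83, limma adjusted p = 9.49e-06), and *Col1a1*, a collagen I chain, at 2.22 and 1.66 TPM against 38.52 and 41.12 TPM (3.80, limma adjusted p = 2.29e-05). *Ccn2*, a matricellular growth factor, rose from 9.01 and 11.72 TPM to 120.79 and 121.94 TPM (3.44, limma adjusted p = 3.30e-06). *Col1a2*, also a collagen I chain, stands among the fibroblast markers and not in the target list. It went the other way, at 9.03 and 6.87 TPM in WT and 1.09 and 2.17 TPM in CypD KO. Many of the target genes answer to other signals as well, and *Skil* and *Pmepa1* stand in both the target list and the feedback list.

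In CypD OE against Control 7 of the 13 target genes rose and 4 fell, 53.8% and 30.8% beside 19.0% and 18.3% of all genes tested. Without *Acta2* the median was 0.36. *Ccn2* rose from 10.58 and 12.12 TPM to 29.94 and 30.02 TPM (1.33, limma adjusted p = 2.56e-04). *Tagln*, an actin-binding protein of contractile cells, fell from 9.60 and 7.99 TPM to 1.08 and 0.74 TPM (-2.36, limma adjusted p = 4.38e-05) and *Col1a1* from 3.29 and 2.72 TPM to 0.20 and 0.81 TPM (-1.44, limma adjusted p = 0.00237). Beside these falls, the summed fibroblast markers were 21.38 to 22.96 TPM in Control and 10.37 to 12.80 TPM in CypD OE. *Col1a2* was at 11.36 and 9.65 TPM in Control and 3.82 and 2.22 TPM in CypD OE. *Postn*, which also stands in the target list, was at 9.11 and 8.65 TPM in Control and 6.91 and 6.42 TPM in CypD OE. The other fibroblast markers were at most 2.25 TPM in these groups. The part of these markers in the result was not tested.

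**Figure D4:**
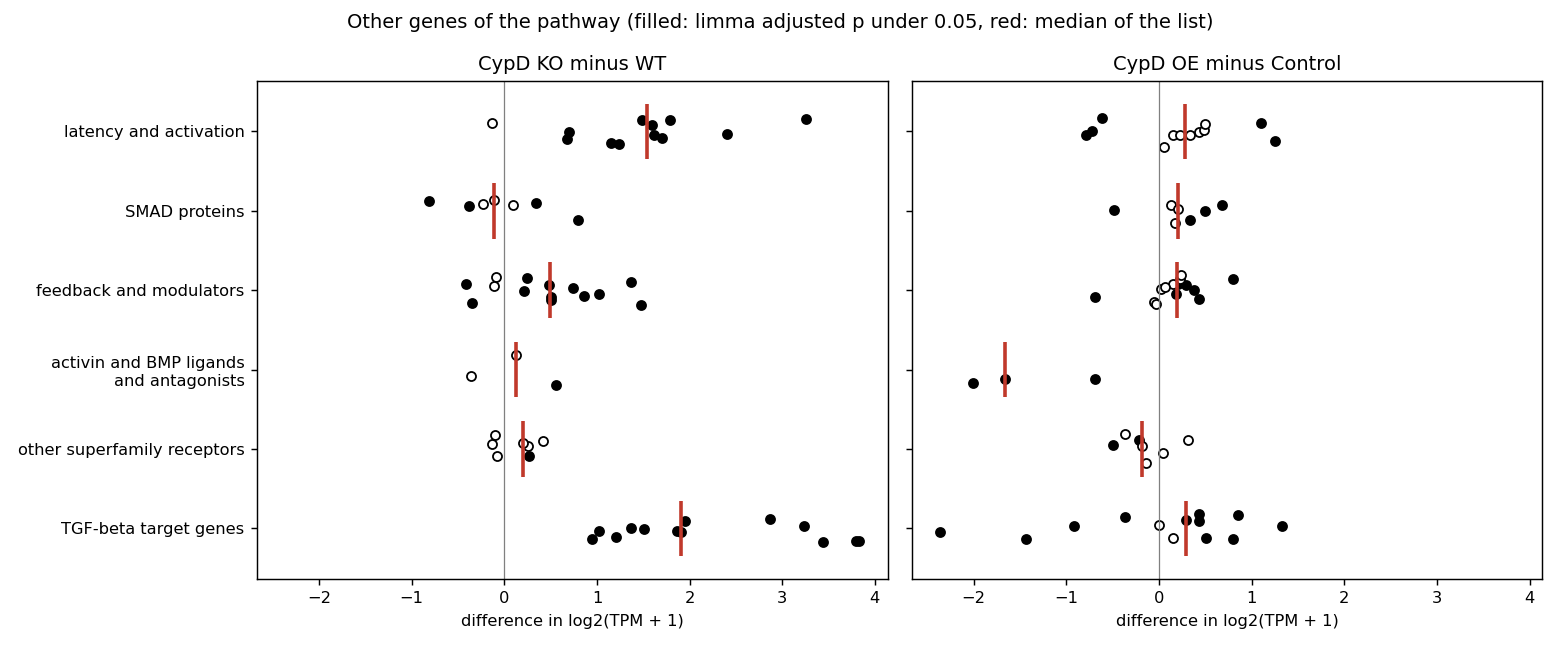
Differences in log2(TPM + 1) of the tested genes of 6 other pathway lists in CypD KO minus WT and CypD OE minus Control; each point is 1 gene, filled where the limma adjusted p is under 0.05, and red bars are medians over all tested genes of a list. The target genes all lie above 0 in CypD KO minus WT, up to 3.83 for *Timp1*, and on both sides of 0 in CypD OE minus Control, from -2.36 (*Tagln*) to 1.33 (*Ccn2*).

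Last, the genes whose pattern over the 8 libraries was most like that of each ligand gene were found by the Pearson correlation of log2(TPM + 1), which is a description over 4 groups of 2 libraries. For *Tgfb1* they were *Stambp* (r = 0.9942), *Inka2* (0.9940) and *Mdm2* (0.9933), and *Mdm2*, for example, averaged 118.5 TPM in WT and 296.2 TPM in CypD KO, but 86.8 TPM in Control and 108.0 TPM in CypD OE. For *Tgfb3* they were *Ndrg4* (0.9961), *Btbd8* (0.9959) and *Postn* (0.9955). For *Inhba* they were *Ifi204* (0.9988), *Parp14* (0.9985) and *S100a8* (0.9983). *Inhba* entered the test through the CypD KO libraries only, so its r rests on that group. *Ifi204* and *S100a8* averaged 6.17 and 1.675 TPM in CypD KO and at most 0.06 TPM in any other group. *Parp14* averaged 3.865 TPM in CypD KO and 0.365 to 0.52 TPM in the others. Such patterns were common, since 792 tested genes for *Tgfb1*, 1063 for *Tgfb3* and 1127 for *Inhba* had an r above 0.9. The pattern of *Tgfb2* was rarer, with 163 such genes, and the most alike were *Sfxn1* (0.9865), *Polr3e* (0.9854) and *Tnks2* (0.9827).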

How the data were processed

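RNA of 8 B16F10 libraries was sequenced after ribosomal RNA depletion, paired-end. The authors trimmed reads with cutadapt 3.4, aligned them with STAR 2.7.8a to GRCm39 and estimated levels with RSEM 1.3.1, and deposited 1 table of TPM values, rounded to 2 decimals, for 55414 genes. TPM is relative to a library's total, so abundant genes that rise lower the rest. The authors tested counts with DESeq2 1.26.0, and a count table was not used here. The labels and the published methods name different RNA isolation kits.

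Genes of at least 1 TPM in at least 2 libraries (13526) were tested with limma 3.58.1 in R 4.3.3 on log2(TPM + 1), with 4 group means over all 8 libraries and a mean-variance trend, and Benjamini-Hochberg adjusted at 0.05. All 10 members passed this filter, *Inhba* and *Ltbp1* through the CypD KO libraries only. The comparisons share WT, Control and CypD OE libraries. The members and lists were chosen with earlier results of these data known. Named from each other list were up to 3 genes of largest difference past the threshold in CypD KO minus WT and in CypD OE minus Control, and for each ligand the 3 most correlated genes, leaving out symbols of predicted genes. *Nrros*, *Smad2*, *Smad1* in CypD KO, *Smad5* in CypD OE, *Acta2* and the untested target genes fall outside this rule. So do the integrin beta chain genes other than *Itgb5*, the marker genes, the ligand shares and the receptor ratio. All of these were chosen after their values were seen. 1 gene of the target list is not reported here and was left out of its counts.

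Fragments behind a value are approximate. They come from the step between low TPM values, at transcripts of 600 to 3000 bases, where 83.8% to 86.7% of values came within 0.15 of a whole fragment (30% if evenly spread), and each member's longest annotated transcript. On simulated data with 13526 genes, 200 of them changed by 1 on the log2 scale between CypD KO and WT, limma recovered 84% with 7 false calls. In the real comparison 30.1% of genes rose and 18.4% fell, so these rates describe the simulated setting only. Replicates correlated at 0.9831 to 0.9848 across genes. Alternatives were no filter or one of 5 TPM, a pseudocount of 0.1, size factors by median of ratios, no trend, a replicate block, a fit restricted to the 4 libraries compared, and each library left out. Promoters came from RefSeq tables on GRCm38.p6.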

Additional observations from a re-analysis of the deposited data

How the results depend on the processing

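Over the 4 comparisons, the calls that held under every alternative that tested the gene were, in CypD KO minus WT, all 9 but *Tgfbr3*, in CypD OE minus Control *Tgfb2*, *Tgfbr2* and *Smad7*, and in CypD OE minus WT *Tgfbr2* and *Smad7*. In Control minus WT neither call did. Of the calls in CypD KO minus WT, those of *Inhba* and *Ltbp1* entered the main fit through the CypD KO libraries only. A filter of 5 TPM removed *Inhba* and *Tgfbr3*, which left 8 members tested and 6 higher in CypD KO minus WT. Of 476 values that the alternatives gave for the members and *Ppif*, 426 kept their direction and side of the threshold, 39 lost their call, 3 gained one and 8 changed sign. Libraries left out one at a time gave 3 to 5 members higher and 0 to 1 lower in CypD OE minus Control (6 and 1 with all libraries), 0 to 1 lower in Control minus WT (2 with all) and 2 to 3 higher in CypD OE minus WT (4 with all); the remaining library of that group is then assumed to vary like the other groups. Rescaling gave 2 members lower in CypD KO minus WT, adding *Tgfb2*. Without a mean-variance trend *Ltbp1* passed as 1 member higher in Control minus WT and as 1 lower in CypD OE minus WT. No filter, and a fit of the 4 libraries alone, each gave 0 members lower in Control minus WT, and the latter gave 2 higher in CypD OE minus WT. Over all genes, no filter gave 1214 of 24706 lower in Control minus WT. The fit of 4 libraries gave 983 of 13526 lower there, against 1635 in the main fit. It gave 1338 genes higher in CypD OE minus WT, against 1891. Both settings ended the calls of *Tgfbr3* in CypD KO minus WT, *Tgfb1* and *Ltbp3* in CypD OE minus Control, and *Ltbp3* in CypD OE minus WT (limma adjusted p = 0.0554 to 0.0816), where no trend also ended that of *Ltbp3* (0.0569) and the fit of 4 libraries that of *Tgfbr1* (0.0763). The cause was not tested. Signs turned only for values that did not pass. Over the libraries left out, the log2 differences in Control minus WT ran from -0.007 to 0.161 for *Tgfb3* (0.08 with all), -0.021 to 0.007 for *Inhba* (-0.01), -0.079 to 0.081 for *Tgfbr1* (0.00, and -0.013 after rescaling) and -0.13 to 0.095 for *Ltbp3* (-0.02), and in CypD OE minus WT from -0.059 to 0.162 for *Tgfbr3* (0.05).

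With the replicate number as a block, 8 members were higher and 1 lower in CypD KO minus WT, 6 and 1 in CypD OE minus Control, 0 and 2 in Control minus WT and 4 and 0 in CypD OE minus WT, and no member call changed. Over all genes the replicate block gave 3894 higher and 2391 lower in CypD KO minus WT. Deviations of same-numbered libraries correlated at 0.108, -0.002, -0.019 and -0.009 in the 4 comparisons, with 2 pairs each. With 2 libraries a group the deviations mirror each other, so this cannot tell whether same-numbered libraries share a batch. The numbers are used here only as names of the libraries.

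Depth limits *Inhba* outside CypD KO, at under 5 fragments a library, and *Ltbp1* in CypD OE, at 7 to 15. With 2 libraries a group a single library decides many of the smaller calls.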

Other observations

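Outside the TGF-beta ligands, few genes of the activin and BMP ligands and their antagonists were measurable in these cells. Of 18 genes 3 were tested. In CypD KO minus WT 1 of them rose, 33.3% beside 30.1% of all genes tested. In CypD OE minus Control all 3 fell, with a median of -1.66, where 18.3% of all genes tested fell. *Fstl3*, a secreted antagonist of activin and myostatin, was at 3.46 and 3.54 TPM in WT, 5.88 and 5.41 TPM in CypD KO, 3.50 and 3.55 TPM in Control and 0.12 and 0.12 TPM in CypD OE, a log2 difference of 0.56 in CypD KO minus WT (limma adjusted p = 0.00799) and of -2.01 in CypD OE minus Control (limma adjusted p = 5.07e-05). The BMP antagonist gene *Nog* fell from 4.42 and 4.28 TPM in Control to 0.84 and 0.55 TPM in CypD OE (-1.66, limma adjusted p = 3.70e-04), and *Gdf11*, a ligand of the activin branch, from 8.64 and 7.83 TPM to 5.05 and 4.43 TPM (-0.69, limma adjusted p = 0.00237). In CypD KO minus WT *Nog* and *Gdf11* had differences of -0.36 and 0.13 that did not pass (limma adjusted p = 0.104 and 0.318).

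The other receptors of the superfamily moved little. Of 7 tested of 11, 1 rose in CypD KO minus WT, *Bmpr2*, the type II receptor for BMPs, by 0.27 (limma adjusted p = 0.0109). This is 14.3% of the list, beside 30.1% of all genes tested. In CypD OE minus Control *Acvr1* (-0.50, limma adjusted p = 0.0144) and *Acvr2a* (-0.22, limma adjusted p = 0.0496) fell. These are 28.6% of the list, beside 18.3% of all genes tested. The median differences were 0.20 and -0.18 in the 2 comparisons.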
